A study of Caenorhabditis elegans with 2 samples.

Results

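The heterochronic genes of Caenorhabditis elegans set the timing of larval development, and 10 of them were examined in a ChIP-seq experiment on PAG-3: lin-14, lin-28, lin-41, lin-29, lin-42, lin-46, daf-12, nhr-85, hbl-1 and let-7. The genes were taken by name, 9 protein-coding genes of 19973 in the annotation and the microRNA gene let-7, which Ensembl lists under another name and which was found by its WormBase identifier. ChIP-seq sequences the DNA that is precipitated with a protein. Here an antibody against GFP was used on whole hermaphrodites of strain OP154, which carry the mutation unc-119(ed3) III and the integrated transgene wgIs154, with GFP and FLAG at the C-terminus of PAG-3. The larvae were starved at the first stage (L1) after bleaching and collected 6 hours after synchronization, in 2 biological replicates that formed 1 group. The labels do not state which promoter drives the transgene, lists of regions do not allow a check of the tagged protein, no control sample was analysed here, and whole animals do not show in which cells a region was bound. PAG-3, related to the vertebrate repressor Gfi1, binds DNA through zinc fingers and is known for its part in neuron fates, such as those of touch receptor neurons.

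The heterochronic pathway works as a chain of switches. lin-14 and lin-28 keep early larval fates, lin-14 as a nuclear DNA-binding protein and lin-28 as an RNA-binding protein that blocks the maturation of let-7. The microRNA lin-4 turns both off, and the microRNA let-7 later turns off lin-41, an RNA-binding protein of the TRIM-NHL family, which lets the zinc finger protein LIN-29 bring about adult fates. Between these stand hbl-1 (a Hunchback-like zinc finger protein), lin-46 (a gephyrin-like protein), daf-12 (a steroid receptor), nhr-85 (a nuclear receptor of the Rev-Erb type) and lin-42 (the homolog of the clock gene Period). For the comparison by timing, lin-14 and lin-28 are called early and the other 8 genes late. The late group thus takes in hbl-1, lin-46, daf-12, nhr-85 and lin-42, which stand in between.

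Regions were counted at a gene when their summit lay in the gene body or within 5 kb of it. The authors' list of both replicates together held 30000 regions, peaks and background. Their thresholded set held 910 of them, or 3.03%. It was cut by the irreproducible discovery rate (IDR), a measure of agreement between replicates. The thresholded set was the 910 regions of highest signal in that list. Signal is the value that the authors' lists give for each region. What it measures and its scale are not stated, so it was read only within a list. Read depth is unknown, because the lists hold no counts, so no interval was computed. A rank of 1 is the highest signal of a list. A region was matched in a replicate when a summit of that replicate's own list of 30000 lay within 100 bp. Of the 910 thresholded regions, 82.5% were matched in both replicates and 137 had no match in replicate 2. A place in the set thus does not by itself mean that each replicate had the region.

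Of the 10 genes, 6 carried 1 or more thresholded regions: lin-14 (2), lin-28 (1), lin-41 (1), daf-12 (1), nhr-85 (2) and let-7 (1). They include 5 of the 9 protein-coding members. Among all 19973 protein-coding genes, 10.2% had a thresholded summit in the same window and 1.22% had 2 or more. The windows of the 10 genes are long, with a median of 17.3 kb against 12.03 kb for all protein-coding genes. In protein-coding genes with windows at least as long as that median the share was 18.2%. Of the 89 listed regions at the members, 8 (8.99%) were thresholded, against 3.03% of the whole list. Thresholded regions lay at 0.372 per 10 kb of the members' windows and at 0.0908 per 10 kb of the genome. Counting gene bodies alone left 3 regions, at lin-14, daf-12 and nhr-85. The members lin-29, lin-42, lin-46 and hbl-1 had no thresholded region. No test was made of these counts, since the genes were chosen with earlier results of these data known.

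**Figure D1:**
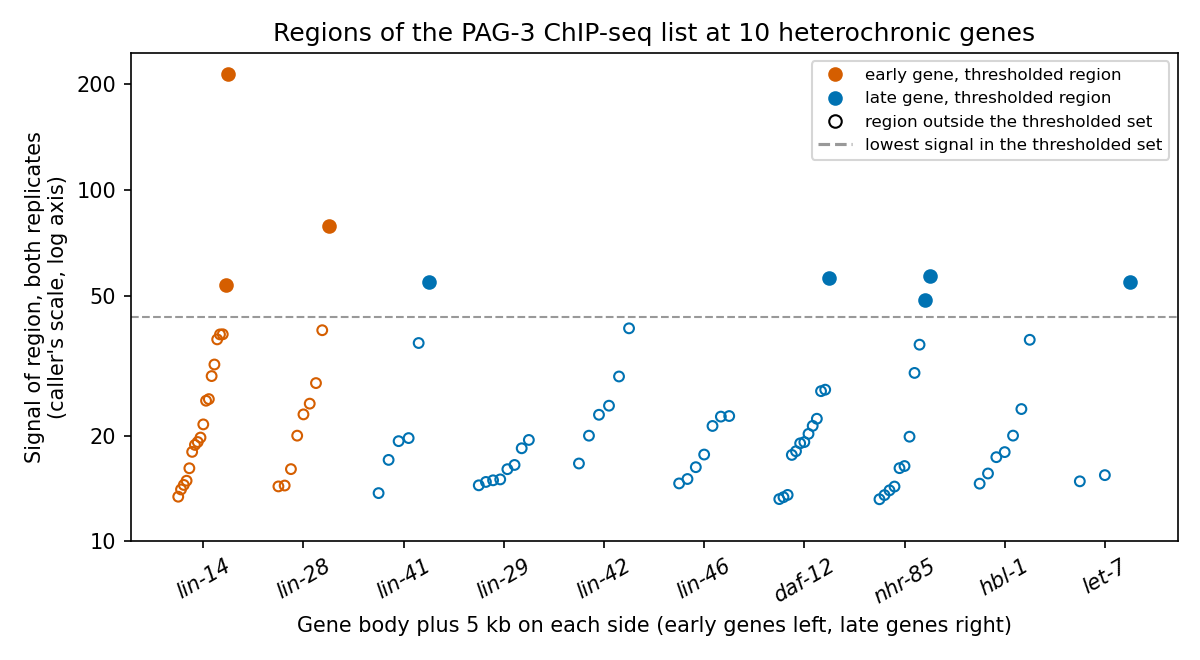
Signal of each region of the list of both replicates (y axis, log scale) at each of the 10 genes (x axis), with early genes in orange at the left, late genes in blue, and filled points for thresholded regions. The highest region lies at lin-14 (213), the second at lin-28 (79.0), and the 5 thresholded regions of late genes lie between 48.6 and 56.8, close to the dashed line at 43.4.

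lin-14 carried the highest region of all members. Its summit lay at position 11467513 on chromosome X, in a region from 11467343 to 11467682 (ce11), with a signal of 213 and rank 40 of 30000. The signal was 157 in replicate 1 (rank 39) and 45.1 in replicate 2 (rank 56), so both replicates placed it near the top of their own lists. The summit lay 1953 bp downstream of the start of the long transcript T25C12.1a, which is 1846 bp into an intron of 2818 bp, the first of 11. The short transcript T25C12.1b begins 12848 bp further downstream. A non-coding RNA gene on the other strand, T25C12.7, also spans the summit.

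The other thresholded region of lin-14 lay 192 bp upstream of its start, with a signal of 53.8 (rank 556). It had a signal of 46.05 in replicate 1 (rank 398) and 11.3 in replicate 2 (rank 4914), a lower place in replicate 2 than in replicate 1. An exon of the non-coding RNA gene T25C12.9 overlaps it. No other protein-coding gene has either lin-14 summit in its window. In all, 19 listed regions fell at lin-14, or 6.27 per 10 kb against 2.99 per 10 kb of the genome. Among them, 7 were in the highest 3000 regions, which make up 10% of the list.

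The weaker regions of lin-14 spread over its promoter and its long introns. Upstream, further summits at 709 and 934 bp from the start had signals of 29.5 and 38.8. In the introns, summits at 3589, 6590 and 8755 bp had signals of 38.8, 37.5 and 31.8. One at 14226 bp (25.1), which is 575 bp upstream of the start of T25C12.1b, was matched in both replicates, at rank 2806 in replicate 1 and 7184 in replicate 2. The summit at 6590 bp ranked 425 in replicate 1 (signal 44.8) and had no match in replicate 2. That at 934 bp upstream also had no match in replicate 2, and that at 8755 bp had none in replicate 1. Of the 19 listed regions, 7 were matched in both replicates. Taken by its own list, replicate 1 had 4 regions of lin-14 among its 910 highest and replicate 2 had 1, the summit in the first intron.

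**Figure D2:**
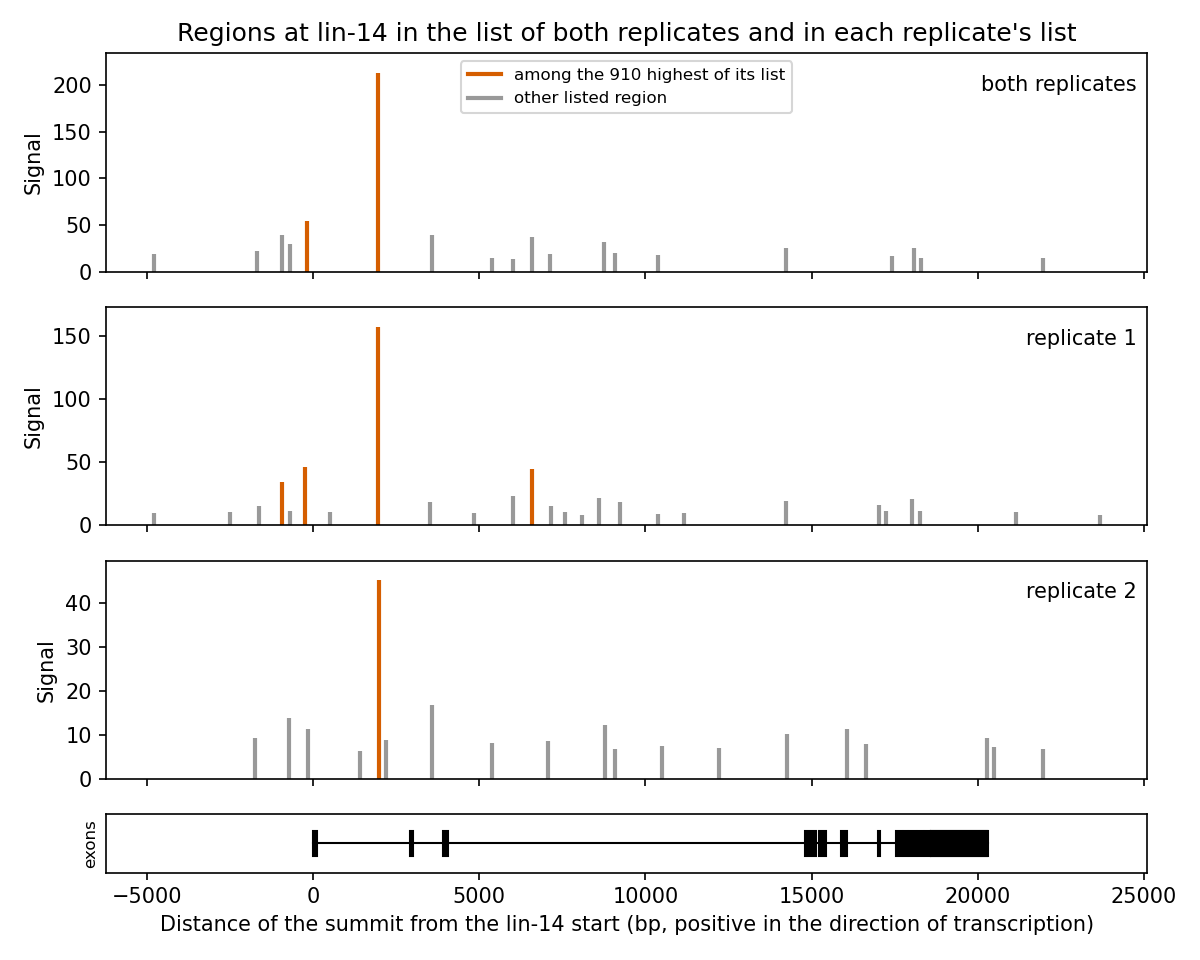
Signal (y axes, a separate scale for each list) of every listed region at lin-14 against the distance of its summit from the gene start in bp (x axis), in the list of both replicates, in replicate 1 and in replicate 2, with exons of all transcripts drawn below. The summit at 1953 bp in the first intron stands highest in each of the 3 lists, and the orange bars mark regions among the 910 highest of a list (2, 4 and 1).

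The sequences at these summits are shown because they are the places in the genome that the precipitate marked most strongly at lin-14, daf-12 and let-7, beside the highest regions of lin-42 and hbl-1, which missed the threshold. Each is 101 bases of ce11, with the summit at base 51, read 5′ to 3′ on the strand of the gene. Capitals mark matches, on either strand, to 5 short motifs. They are the repeat GAGAGA, the hexamer ATGGCA, the hexamer GACGCA, the E-box CACGTG and, as the core of the site of vertebrate Gfi1, the hexamer AATCAC. All were taken from earlier work on these same summits.
lin-14, first intron, chrX:11467463-11467563, plus strand: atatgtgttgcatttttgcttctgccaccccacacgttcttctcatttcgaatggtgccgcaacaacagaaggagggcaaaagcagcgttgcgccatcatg
lin-14, upstream, chrX:11465318-11465418, plus strand: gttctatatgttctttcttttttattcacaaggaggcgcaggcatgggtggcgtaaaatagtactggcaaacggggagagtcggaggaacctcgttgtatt
daf-12, first intron, chrX:10637502-10637602, plus strand: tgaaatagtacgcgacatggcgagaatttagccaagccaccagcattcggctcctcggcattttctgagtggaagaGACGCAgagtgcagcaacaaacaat
let-7, upstream, chrX:14747198-14747298, minus strand: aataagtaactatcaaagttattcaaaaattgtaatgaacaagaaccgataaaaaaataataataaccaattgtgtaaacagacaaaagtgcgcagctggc
lin-42, first intron, chrII:1247146-1247246, minus strand: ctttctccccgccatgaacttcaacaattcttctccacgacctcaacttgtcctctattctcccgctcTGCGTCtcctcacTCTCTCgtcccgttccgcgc
hbl-1, upstream, chrX:5820188-5820288, plus strand: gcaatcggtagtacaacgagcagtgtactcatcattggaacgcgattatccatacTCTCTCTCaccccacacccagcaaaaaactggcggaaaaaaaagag

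Both lin-14 sequences and the let-7 sequence hold none of the 5 motifs. The daf-12 sequence has GACGCA, the lin-42 sequence has GACGCA and GAGAGA in reverse, and the hbl-1 sequence has 2 overlapping matches to GAGAGA in reverse. GC content was 49.5% at the lin-14 intron and at daf-12 and 28.7% at let-7, while the median over all 910 thresholded summits was 43.6%.

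Over the 8 thresholded regions of the members, GACGCA lay within 50 bp of 2 summits, at daf-12 and in the intron of nhr-85, against 11.98% of all 910 thresholded summits and 2.68% of all 30000 listed summits. GAGAGA was at none of the 8, against 28.8% of the thresholded and 7.78% of the listed summits. ATGGCA was likewise at none, against 15.2% and 3.81%, and so was CACGTG, against 5.71% and 2.09%. AATCAC was at 1, the intron of nhr-85, against 5.05% and 5.58%. Thus 2 of the 8 held any of the motifs, while 51.0% of all thresholded summits and 19.6% of all listed summits did. Among the 81 listed regions of the members outside the thresholded set, 8 held GAGAGA (9.88%), 1 ATGGCA, 2 GACGCA, 3 CACGTG and 5 AATCAC. A motif match is a description of the letters and not of a bound site, and 8 regions are few. Because the motifs came from earlier work on these same summits, their shares over all thresholded summits are a description and no test. The share holding any motif was worked out after these values were seen.

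The other early gene, lin-28, had its highest region upstream of the start. The summit lay at 8411348 on chromosome I, 544 bp upstream of transcript F02E9.2a and 1428 bp upstream of F02E9.2b, with a signal of 79.0 (rank 227). It had 61.4 in replicate 1 (rank 207) and 19.9 in replicate 2 (rank 506), so it was among the 910 highest of both. The next region of lin-28, with a signal of 39.9 (rank 1121), fell below the threshold. That summit lay in the first intron, 155 bp upstream of the start of F02E9.2b. There replicate 2 had a signal of 20.4 (rank 463), above its own value at the upstream summit, and replicate 1 had 11.6 (rank 11101). Replicate 2 thus placed both sides of the lin-28 start about equally high, and replicate 1 placed the upstream one far higher. Of 9 listed regions, 5 were matched in both replicates.

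Among the late genes, let-7 had the thresholded region that both replicates ranked most alike. Its summit lay at 14747248 on chromosome X, 1927 bp upstream of the longest primary transcript and 2768 and 2952 bp upstream of the shorter ones. The signal was 54.7 (rank 529), with 35.3 in replicate 1 (rank 709) and 19.0 in replicate 2 (rank 596). The summit was 55 bp upstream of the start of C05G5.2, a protein-coding gene on the opposite strand, so by position the region can be assigned to either gene. Besides it, let-7 had 2 listed regions with signals of 14.8 and 15.4.

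lin-41, the main target of let-7, had a thresholded summit 1433 bp upstream of its outer start and 2010 bp upstream of its inner one, at 9343929 on chromosome I. The signal was 54.7 (rank 531). The replicates differed in its rank, with a signal of 48.3 in replicate 1 (rank 346) and 8.77 in replicate 2 (rank 12329). Inside lin-41, 3 listed regions in introns and the 3′ untranslated region reached at most 19.7. A region of 36.7 lay 9083 bp from the start, beyond the end of the gene.

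The nuclear receptor genes daf-12 and nhr-85 each had a thresholded region in the first intron of the transcript with the outermost start. In daf-12 the summit lay at 10637552 on chromosome X, 1497 bp into an intron of 8353 bp and 1644 bp from the start of F11A1.3e.3. The other 9 annotated transcripts of daf-12 begin 6857 to 26854 bp further downstream. The signal was 56.2 (rank 502), with 38.8 in replicate 1 (rank 574) and 11.6 in replicate 2 (rank 4537). At 703 bp from the same start, a lower region of 26.7 was matched only in replicate 2 (signal 18.5, rank 680). Each replicate had 1 daf-12 region among its 910 highest, and that of replicate 2 lay nearer the start.

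In nhr-85 the summit in the intron was 867 bp from the start, at 13061255 on chromosome I and 567 bp into an intron of 2196 bp. Its signal was 48.6 (rank 691), with 39.97 in replicate 1 (rank 536) and 9.48 in replicate 2 (rank 9584). The other nhr-85 summit, at 13065983, had a signal of 56.8 (rank 493), with 46.4 in replicate 1 (rank 391) and 7.42 in replicate 2 (rank 19425). It lay 3861 bp upstream of nhr-85 but 641 bp upstream of hpo-2, whose start is nearer. Neither of these 2 thresholded regions was among the 910 highest of replicate 2. The best nhr-85 region of replicate 2 (rank 4028) lay elsewhere, beyond the end of the gene and inside npr-14. It was below the threshold, with a signal of 36.3 (rank 1447), and ranked 2149 in replicate 1.

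**Figure D3:**
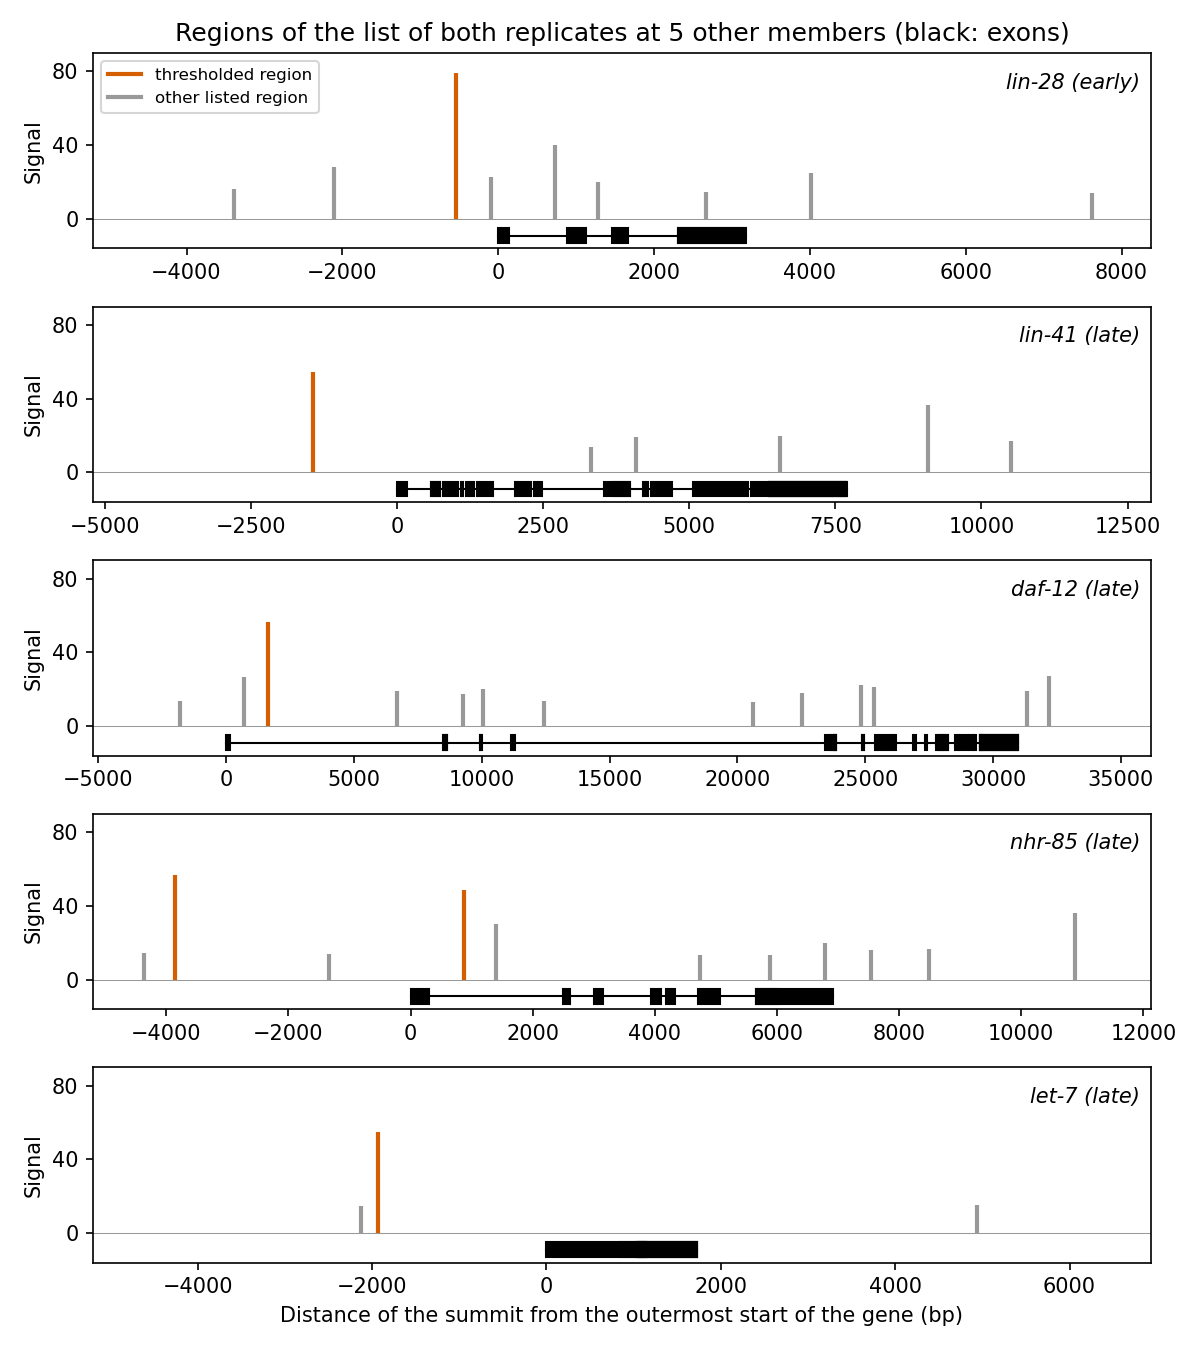
Signal of every region in the list of both replicates (y axis, same scale in each panel) against the distance of its summit from the outermost start of the gene in bp (x axis), for lin-28, lin-41, daf-12, nhr-85 and let-7, with exons of all transcripts in black. Orange bars mark thresholded regions, which lie upstream of lin-28, lin-41, nhr-85 and let-7 and inside the first introns of daf-12 and nhr-85.

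The members without a thresholded region differed in how close they came. The Period homolog lin-42 had a region of 40.4 (rank 1090), just below the lowest thresholded signal of 43.4 and the highest of all member regions outside the set. It lay in the first intron of the longest transcript, 3161 bp upstream of the next start. It had 24.2 in replicate 1 (rank 1656) and 11.95 in replicate 2 (rank 4003). An exon of F47F6.15 overlaps the 101 bases around that summit. A second lin-42 region, 193 bp upstream of the same inner start, had a signal of 29.4, and its match in replicate 2 had 18.4 (rank 692) while replicate 1 had none. At hbl-1 the highest region (37.4, rank 1325) lay 1904 bp upstream of the start and was matched in replicate 1 alone, with 35.7 (rank 697). The non-coding RNA gene F13D11.20 spans that summit. A second hbl-1 region 915 bp upstream (23.8) had 18.0 in replicate 2 (rank 750) and 10.9 in replicate 1 (rank 13004). Each replicate thus had an hbl-1 region among its 910 highest, at different places.

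lin-29 and lin-46 had weak regions. The 8 listed regions of lin-29 had signals from 14.4 to 19.4, the best at rank 9814, and none was matched in both replicates. At lin-46, 7 regions had signals from 14.6 to 22.7, the best at rank 5694 and again none matched in both. The median signal of all 30000 regions was 17.1, which lies within the range of both genes. The highest lin-46 region, in its 3′ untranslated region, had 15.2 in replicate 2 (rank 1459) and no match in replicate 1. Its summit lay 384 bp upstream of the start of pnn-1, which is nearer than the lin-46 start at 1871 bp. For lin-29, the best region of its own in replicate 1 ranked 7670 and that in replicate 2 ranked 4896.

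All 8 thresholded regions of the members had a match in both replicate lists, against 82.5% of all 910. Each was among the 910 highest of replicate 1, against 78.0% of all 910. Among the 910 highest of replicate 2 were 3 of the 8 (37.5%), against 52.6% of all 910. The same 3 were among the 910 highest of both replicates, against 39.2% of all 910. Those 3 were the intron of lin-14, the upstream region of lin-28 and the region of let-7. Past rank 9000 in replicate 2 lay 3 of the 8, those of lin-41 and nhr-85. Of all thresholded regions, 20.7% were past that rank or unmatched. The 3 member regions were also among the 910 highest of replicate 1, and 5.05% of all 910 met both conditions. The limit of 9000 was chosen after these values were seen. Over all listed regions, 27 of 89 at the members (30.3%) were matched in both replicates, against 22.1% of all 30000.

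**Figure D4:**
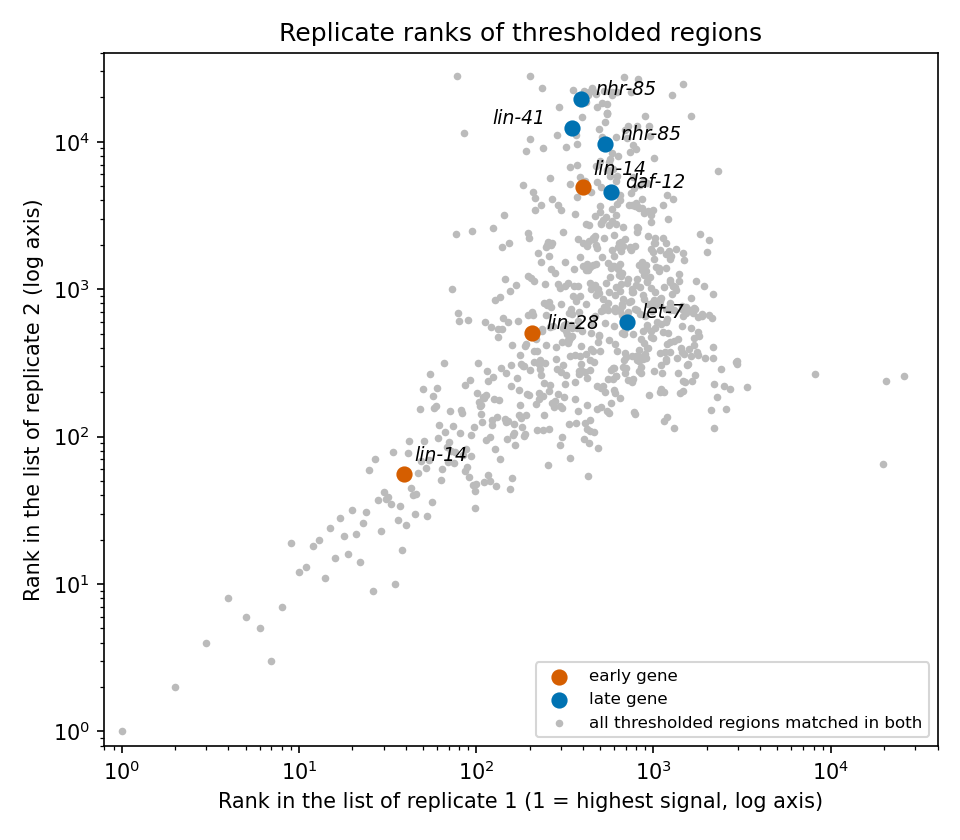
Rank in the list of replicate 1 (x axis, log scale) against rank in the list of replicate 2 (y axis, log scale) for the 3 thresholded regions of early genes (orange), the 5 of late genes (blue) and the 751 thresholded regions matched in both lists (grey). The lin-14 intron lies at 39 and 56 and lin-28 at 207 and 506, while lin-41 and both nhr-85 regions lie past 9000 in replicate 2.

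Early and late genes were compared by their regions, as a description of 2 genes against 8 with no test. The early genes had 3 thresholded regions, 1.5 per gene, and the late genes 5, or 0.625 per gene. Per 10 kb of window this came to 0.690 in the early genes and 0.291 over the late genes. Single genes did not follow this order. lin-14 had 0.660 and lin-28 0.759 per 10 kb, while the late genes nhr-85 and let-7 had 1.18 and 0.852. The late genes lin-29, lin-42, lin-46 and hbl-1 had none. The values of nhr-85 and let-7 each include a region nearer to the start of another gene, hpo-2 or C05G5.2. Counted by nearest start only, nhr-85 had 1 region and let-7 had 0, while lin-14 kept 2 and lin-28 kept 1. The signals of the 3 early regions ran from 53.8 to 213 and those of the 5 late regions from 48.6 to 56.8, so the lowest early value fell within the late range. In replicate 2 the early regions ranked from 56 to 4914 and the late ones from 596 to 19425. With replicate 1 alone the difference of 0.875 regions per gene became 1.75, and with replicate 2 alone it became 1. Counting hbl-1 as early reduced it to 0.286.

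All listed regions together, thresholded or not, came to 6.44 per 10 kb of window at the early genes, against 3.55 at the late genes and 2.99 in the genome. Below the threshold there were 25 regions at the early genes, or 5.75 per 10 kb, and 56 at the late genes, or 3.26 per 10 kb. Gene by gene the classes overlapped at nhr-85 alone, since lin-14 had 6.27 and lin-28 6.83 listed regions per 10 kb and nhr-85 had 6.50. The next late gene, lin-46, had 5.89, below both early genes. These counts include regions nearer to the start of another gene, such as F02E9.7 at lin-28, npr-14 at nhr-85 and pnn-1 at lin-46. Of 28 early regions, 10 (35.7%) were among the highest 3000, against 11 of 61 late regions (18.0%). lin-14 alone held 7 of the 10. Matches in both replicates were found for 12 early regions (42.9%) and 15 late regions (24.6%). The median signal was 22.2 over the early regions and 18.4 over the late ones.

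By place, the 8 thresholded regions were 5 upstream and 3 in introns, and none lay in an exon of the member or downstream of it. All 3 intronic summits were in the first intron of the transcript with the outermost start. Among 240 thresholded summits in introns of the longest transcript of genes with 2 or more introns, 40.8% were in the first, a comparison chosen after the members' places were seen. Of all 2337 pairs of a protein-coding gene and a thresholded summit in its window, 51.9% were upstream, 12.9% inside the gene and 35.1% downstream. For 6 of the 8 summits the nearest start was the member's own, the exceptions being the region shared with hpo-2 and that shared with C05G5.2. Of the 4 members on chromosome X (lin-14, daf-12, hbl-1 and let-7), 3 had a thresholded region, among them the microRNA gene let-7. Of the protein-coding genes of X, 15.1% had one. This share is not matched for window length, and the windows of lin-14 and daf-12 are long, at 30.3 and 41.0 kb.

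Other genes of developmental timing were taken from a list of 32, of which 31 were found in the annotation. Of these, 25 are protein-coding, and thresholded regions lay at 7 of the 25 (28%), against 10.2% of all protein-coding genes. The windows of the 25 had a median of 15.9 kb, and among all protein-coding genes with windows at least that long the share was 16.8%. No thresholded region lay at the microRNA genes lin-4, mir-48, mir-84, mir-241 and mir-237 or at the non-coding RNA gene lep-5. Their windows are short, from 10.08 kb at mir-84 to 10.93 kb at lep-5, and the genome holds 0.0908 thresholded regions per 10 kb. At that density, absence from so few short windows says little. The transcription factor genes myrf-1, myrf-2 and nhr-25 each had a thresholded region close upstream, at 263, 257 and 260 bp from the start. Their signals were 75.4 at myrf-1, 110.9 at myrf-2 and 48.1 at nhr-25. The myrf-2 summit ranked 77 in replicate 1 and 2355 in replicate 2, the nhr-25 summit 1084 in replicate 1 and 835 in replicate 2, and the myrf-1 summit ranked 138 in replicate 2 and was unmatched in replicate 1. myrf-2 also had an intronic region of 74.8 and one of 86.1 beyond its end, nearer to the start of ncs-4. MYRF-1 and MYRF-2 are membrane-bound transcription factors of larval development, and NHR-25 is a nuclear receptor of molting and epidermis.

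The remaining 4 genes of that list act on RNA or are less well placed in the pathway. puf-9, a Pumilio-family RNA-binding protein, had a region 418 bp upstream (100.5), with 75.1 in replicate 1 (rank 143) and no match in replicate 2. nhl-2, a cofactor of microRNA complexes, had a region of 88.2 lying 836 bp upstream and nearer to tag-340, at rank 140 in replicate 1 and 533 in replicate 2. At xrn-2, an exoribonuclease that degrades microRNAs, a region of 61.7 lay 1211 bp upstream and nearer to Y48B6A.1, at rank 387 in replicate 1 and 5769 in replicate 2. sea-2 had an intronic region of 50.1, ranked 1062 in replicate 1 and unmatched in replicate 2.

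The genes most like lin-14 were sought among the 195 other protein-coding genes with 2 thresholded summits in the window, by the absolute log2 ratio of the summed signal to the 266.7 of lin-14. They were F54G2.1 and T03G6.3, which share their summits (259.2, ratio 0.04), mlc-1 and slc-17.1, which also share theirs (257.5, ratio 0.05), and R10E4.3 (284.6, ratio 0.09). Among them, mlc-1 encodes a regulatory light chain of muscle myosin. The likeness rests on the number of summits and their summed signal alone.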

How the data were processed

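Each replicate list and the list of both replicates together was made by the authors from ce11 alignments against 1 control file, as input for IDR, per the deposited file lists. Aligner and caller: not given in the sources used here. As deposited, the signal is a value per region whose measure is not stated, and the deposited summit offset gave each summit. The second version on ce10 was not used. Groups and replicate numbers came from the labels.

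Genes came from Ensembl release 115 (WBcel235, the ce11 assembly) and sequence from the RefSeq genome of that assembly, read with Python 3.11.15 and pandas 2.3.3. A region could count for several genes, and 2.57 protein-coding windows held each thresholded summit on average. Distances are to annotated transcript starts, and trans-spliced genes can begin upstream of these. Counting and matching were tested on simulated data.

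The members and lists were chosen with earlier results of these data known. Named genes are the 10 members, genes of the timing list of 32 with a thresholded region, the nearest other gene at a member's summit and the 5 genes most like lin-14. Counts are given beside those over all genes, without tests. Alternatives were other windows, the 455 thresholded regions of highest signal, each replicate alone, the nearest start, other definitions of a match and another division into early and late.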

Additional observations from a re-analysis of the deposited data

How the results depend on the processing

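The 8 thresholded regions and the 6 members that carry them became 3 and 3 with gene bodies alone and 2 and 2 with the 455 regions of highest signal, where lin-14 and lin-28 kept 1 region each. With windows of 2 and 10 kb the regions were 7 and 9, and with nearest starts they were 6 at 5 members. The 910 highest regions of single replicates gave 7 to 11 regions at 6 to 7 members. In replicate 2 alone lin-41 and nhr-85 had none, lin-42 had 1 and hbl-1 had 1. The 8 regions matched in both replicates became 3 when matches were sought among the 910 highest of each list, and 7 with summits within 50 bp. The difference between early and late genes was 0.875 regions per gene. It was 0.25 with gene bodies alone, where lin-14 had 1 region and lin-28 had 0. It was 0.286 with hbl-1 counted as early and 1 to 1.75 in single replicates. In the other unit, per 10 kb of window, it was 0.399. The sign was kept throughout, but these settings recount the same early genes and are not separate support. The share of all protein-coding genes with a thresholded summit, 10.2%, was 1.30% with gene bodies alone, 6.12% with 2 kb, 16.5% with 10 kb, 10.4% with any shared base, 5.11% with the 455 regions and 4.06% by nearest starts. The 89 listed regions became 47 with gene bodies alone. Smaller windows and shorter lists hold fewer regions by construction; other causes were not tested. Read depth is unknown, and 2 replicates limit the precision.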
